A study of Macaca mulatta with 30 samples.

Results

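The transcription factors ZBTB16, KLF9, KLF15, CEBPB, CEBPD, FOXO1 and FOXO3 were taken from the count tables of fetal rhesus macaque lung and hippocampus by the gene symbol of each Ensembl identifier. Of these 7 factors, 5 were matched in the lung table, among 30246 identifiers, and 6 in the hippocampus table, among 32386 identifiers. KLF9 was matched in neither tissue, so no value is given for it, and CEBPB was matched in hippocampus only. All matched factors passed the filter on low counts. Their identifiers were ENSMMUG00000007085 (ZBTB16), ENSMMUG00000003721 (KLF15), ENSMMUG00000045219 (CEBPB), ENSMMUG00000013151 (CEBPD), ENSMMUG00000030780 (FOXO1) and ENSMMUG00000020369 (FOXO3).

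Pregnant animals had been injected intramuscularly, and each library came from 1 fetus, so p-values measure the spread between these animals. Lung came from 5 groups of 3 fetuses, namely saline controls, the clinical drug (Celestone, betamethasone phosphate mixed with the acetate, dosed at 0.25 mg/kg) sampled at 4 h or 5 days, and Beta-Ac (betamethasone acetate alone, dosed at 0.125 mg/kg) sampled at 6 h or 5 days, all labelled as gestational day 124 to 130. Hippocampus came from 3 groups of 5 fetuses, saline controls, CEL and BAC, at gestational ages of 130 to 136 days, and the study collected these 5 days after treatment. As 9 animals gave both tissues, the age labels of lung and hippocampus cannot both be ages at sampling. The delivery age that the paper states lies within the hippocampus range. The library names were followed for hippocampus, because its treatment and dose fields give BAC the mixed drug and CEL the acetate, opposite to the lung labels of the animals that the tissues share, by which CEL is the clinical drug and BAC is Beta-Ac.

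Betamethasone crosses the placenta and binds the glucocorticoid receptor, which moves to the nucleus and binds DNA near its target genes. Several of its direct targets are themselves transcription factors, so that a short exposure to the hormone can be passed on to further genes. ZBTB16 (PLZF) is a zinc finger protein with a BTB domain, known as a strongly hormone-induced gene. KLF9 and KLF15 are Krüppel-like zinc finger factors, and KLF15 is known for control of amino acid and glucose metabolism. CEBPB and CEBPD are leucine zipper factors of the acute-phase response and of lung epithelium, and FOXO1 and FOXO3 are forkhead factors of fasting and stress resistance that insulin signaling keeps out of the nucleus.

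Libraries held 14.1 to 45 M counted reads in lung and 18.3 to 29.3 M in hippocampus. Levels are given as CPM, counts scaled to library size after TMM normalization, and they compare samples for 1 gene, not genes with each other. Markers of lung epithelium summed to 7430 to 18900 CPM in lung (9 genes) and to 402 to 560 CPM in hippocampus (6 genes). Markers of neurons summed to 20.3 to 36.5 CPM in lung (8 genes) and to 5290 to 8930 CPM in hippocampus (11 genes). The sums thus cover unlike gene sets in the tissues. The control of animal 15-92 and BAC235 stood apart in hippocampus, with 0.542% and 0.529% of reads on the 4 most abundant identifiers against 5.36 to 12.9% in the others. CTL212 held 1660 CPM of choroid plexus markers in sum, against 24.7 to 150 CPM in the other hippocampus libraries. In bulk tissue, a change in the number of cells of a type and a change in RNA per cell cannot be told apart.

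Shortly after either drug, all 5 factors measured in lung stood above every control animal, and at 5 days none of them passed the test. At 4 h after the clinical drug, 5 of 5 were induced, from 2.34-fold for FOXO1 to 21.6-fold for ZBTB16. Over all 17644 genes tested, 7.4% were called in either direction and 3.46% as higher. At 6 h after Beta-Ac, 2 of 5 were induced, ZBTB16 by 13.2-fold and KLF15 by 2.51-fold, where 0.442% of all genes were called and 0.368% as higher. The 5 factors had a median log2 fold change of 1.87 with the clinical drug and of 1.33 with Beta-Ac, beside 0.02 for all genes in each comparison. Without Beta-Ac animal 17-254, which was the highest of its group for every factor, the Beta-Ac median was 0.84. Calls were made with edgeR's quasi-likelihood test, where the adjusted p (Storey's method in lung) had to be below 0.1, the unadjusted p below 0.05 and the fold change 1.5 or more. Both drugs were compared with the same 3 controls.

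**Figure D1:**
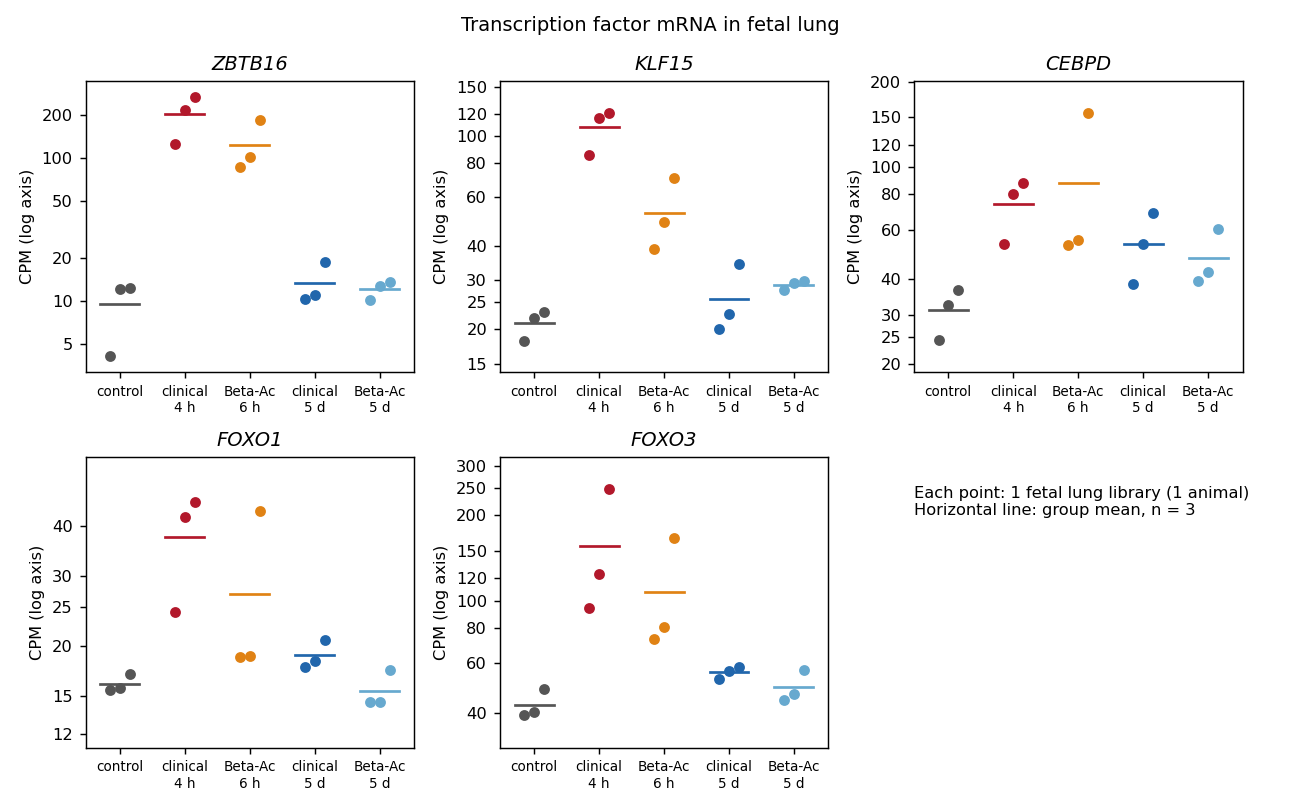
Level of each factor in each lung library, in CPM on a log axis, for the 5 lung groups, with points for animals and lines for group means (n = 3). All 6 early treated animals lie above all 3 controls in each panel. The 5-day animals lie below the early treated animals for ZBTB16, KLF15 and FOXO3, while for CEBPD they lie above all controls and 3 of them reach the early range.

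ZBTB16, the hormone-induced BTB factor, changed the most of the 5. In the control animals it stood at 12.1, 12.3 and 4.12 CPM, at 4 h after the clinical drug at 267, 125 and 216 CPM, and at 6 h after Beta-Ac at 101, 86.4 and 183 CPM. The lowest treated animal thus lay far above the highest control, and the drug groups overlapped each other. The log2 fold change was 4.43 ± 0.44 (SE, n = 3 against 3, edgeR adjusted p = 4.84e-05) for the clinical drug and 3.72 ± 0.43 (edgeR adjusted p = 0.00224) for Beta-Ac. By p, ZBTB16 ranked 20 of 17644 genes after the clinical drug and 3 after Beta-Ac. At 5 days it stood at 10.4, 10.9 and 18.6 CPM after the clinical drug and at 10.2, 13.4 and 12.8 CPM after Beta-Ac, overlapping the controls.

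KLF15, the Krüppel-like factor of amino acid breakdown, stood at 21.9, 23 and 18.2 CPM in controls. With the clinical drug it reached 122, 85.5 and 116 CPM at 4 h, and with Beta-Ac 38.9, 49 and 70.2 CPM at 6 h. These 3 groups did not overlap, with Beta-Ac between controls and the clinical drug. KLF15 rose by 2.36 ± 0.23 on the log2 scale after the clinical drug (SE, n = 3 against 3, edgeR adjusted p = 4.84e-05) and by 1.33 ± 0.23 after Beta-Ac (edgeR adjusted p = 0.0355). The Beta-Ac call was lost without control 15-92, control 16-113 or Beta-Ac animal 17-254 (edgeR adjusted p = 0.145, 0.102 and 0.184), and when only the groups compared were fitted (edgeR adjusted p = 0.14). At 5 days it stood at 20, 22.6 and 34.5 CPM after the clinical drug and at 27.7, 29.7 and 29.4 CPM after Beta-Ac. All 3 animals of the latter group were above the controls, with a log2 fold change of 0.46 ± 0.23 (SE, edgeR adjusted p = 0.746).

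CEBPD, a C/EBP factor that responds quickly to hormones and inflammation, stood at 36.8, 32.6 and 24.4 CPM in controls. At 4 h after the clinical drug it stood at 80.2, 53.5 and 88 CPM, and at 6 h after Beta-Ac at 52.8, 55.2 and 155 CPM. Neither treated group overlapped the controls, and 1 Beta-Ac animal, 17-254, was far above the other two. The log2 fold change of 1.24 ± 0.37 after the clinical drug passed the test (SE, n = 3 against 3, edgeR adjusted p = 0.0465), while 1.49 ± 0.37 after Beta-Ac did not (edgeR adjusted p = 0.13). The first call was lost without animal 15-97, control 15-101 or control 16-113 (edgeR adjusted p = 0.113, 0.106 and 0.157). The second value was called by DESeq2 (adjusted p = 0.00545), and without 17-254 it was 0.79 (edgeR adjusted p = 0.644).

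CEBPD had the highest 5-day estimates of the 5 relative to control with both drugs, 0.78 and 0.61 on the log2 scale, and the order of the factors was not tested. It stood at 68.9, 38.5 and 53.5 CPM at 5 days after the clinical drug and at 42.7, 60.4 and 39.6 CPM after Beta-Ac, and all 6 animals were above the highest control. With both 5-day groups combined, the log2 fold change was 0.69 ± 0.33 (SE, n = 6 against 3), with an unadjusted edgeR p of 0.0533 and an adjusted p of 0.733, so it did not pass the test. In that comparison 0 of 5 factors and 0.0113% of all genes were called by edgeR (0 factors with an unadjusted p under 0.05, 0 by DESeq2).

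FOXO1, a forkhead factor of the fasting response, stood at 15.6, 15.5 and 17 CPM in controls. With the clinical drug it reached 45.9, 24.3 and 42.2 CPM at 4 h, and with Beta-Ac 18.8, 18.9 and 43.5 CPM at 6 h. All treated animals were above the controls, although Beta-Ac animals 16-123 and 16-131 were only slightly so. FOXO1 rose by 1.23 ± 0.29 on the log2 scale after the clinical drug (SE, n = 3 against 3, edgeR adjusted p = 0.016). The value after Beta-Ac was 0.75 ± 0.29 (edgeR adjusted p = 0.281), and without animal 17-254 it was 0.23 (edgeR adjusted p = 0.886). At 5 days FOXO1 ranged from 17.7 to 20.7 CPM after the clinical drug and from 14.4 to 17.4 CPM after Beta-Ac, so that the former lay just above the controls and the latter overlapped them.

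FOXO3, the other forkhead factor, stood at 39.3, 40.4 and 48.8 CPM in controls. With the clinical drug it stood at 248, 94.4 and 125 CPM at 4 h, and with Beta-Ac at 80.9, 73.2 and 167 CPM at 6 h. Every early treated animal was above the controls, and within each treated group 1 animal was well above the others. FOXO3 rose by 1.86 ± 0.33 on the log2 scale after the clinical drug (SE, n = 3 against 3, edgeR adjusted p = 0.00282). After Beta-Ac the log2 value was 1.32 ± 0.33 (edgeR adjusted p = 0.13), which DESeq2 called (adjusted p = 0.0065) and which without 17-254 was 0.84 (edgeR adjusted p = 0.657). At 5 days FOXO3 ranged from 53 to 58.1 CPM after the clinical drug and from 44.6 to 57 CPM after Beta-Ac, and again only the former lay fully above the controls.

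**Figure D2:**
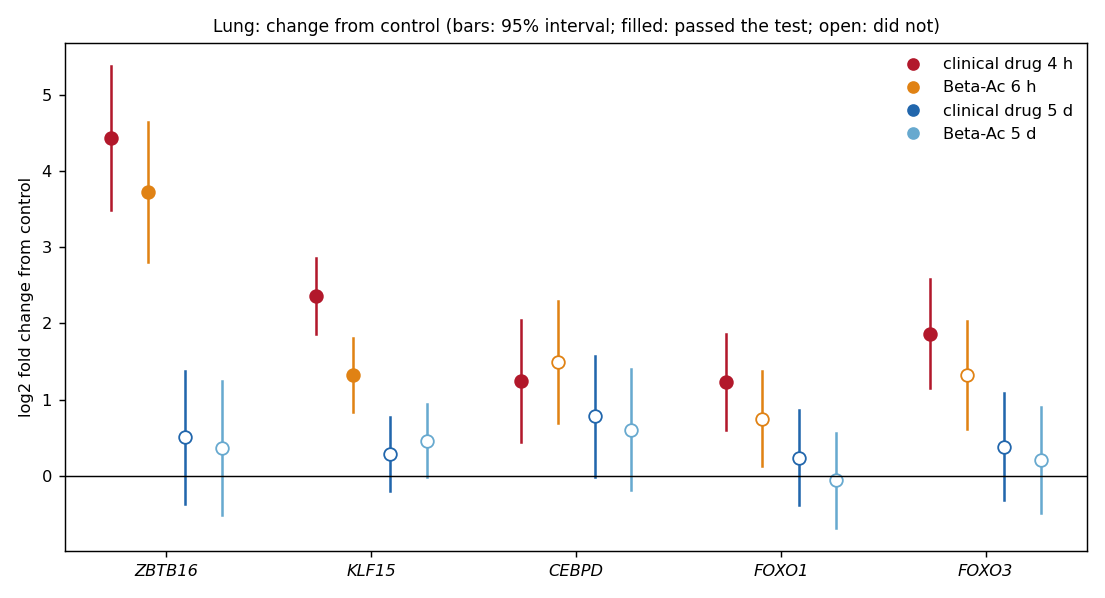
Log2 fold change from control of each factor in lung for both drugs at the early time and at 5 days, with bars for the 95% interval and filled points for values that passed the test. Early points lie between 0.75 and 4.43, and the 5-day points lie between -0.06 and 0.78 with intervals that include 0.

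At 5 days, 0 of 5 factors were called for the clinical drug (edgeR, with 0% of all genes called), and 0 of 5 for Beta-Ac (0.00567% of all genes). In both comparisons 0 factors had an unadjusted edgeR p under 0.05, and DESeq2 called 0 of them as well. Among all genes, 775 and 1133 had an unadjusted edgeR p under 0.05, and DESeq2 called 16 and 40. The 5 factors had a median log2 fold change of 0.38 with the clinical drug and of 0.37 with Beta-Ac, beside 0.00 and 0.01 for all genes. The intervals of single factors were wide, reaching 1.57 for CEBPD and 1.38 for ZBTB16 with the clinical drug.

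The fall from the early time to 5 days was tested within each drug. With the clinical drug, animals 15-81, 15-85 and 15-97 were sampled at 4 h and 16-115, 16-120 and 16-126 at 5 days. Time and the first number of the animal names therefore cannot be told apart in that comparison. For the clinical drug, 4 of 5 factors were higher at 4 h than at 5 days, where 10.4% of all genes were called. ZBTB16 was higher by 3.93 ± 0.42 on the log2 scale (edgeR adjusted p = 5.78e-05), KLF15 by 2.07 ± 0.23 (edgeR adjusted p = 7.47e-05), FOXO3 by 1.48 ± 0.33 (edgeR adjusted p = 0.00771) and FOXO1 by 0.99 ± 0.29 (edgeR adjusted p = 0.0291). Without animal 15-81 the value of FOXO3 was 0.956 and still called. CEBPD was the factor that did not pass, at 0.47 ± 0.36 with a 95% interval from -0.31 to 1.24. For Beta-Ac, only ZBTB16 passed, at 3.35 ± 0.41 (edgeR adjusted p = 0.00624), where 0.261% of all genes were called. Its other 4 factors were at log2 differences of 0.81 to 1.11, each with an unadjusted edgeR p under 0.05, and DESeq2 also called KLF15 and FOXO3. Without animal 17-254 these were lower, with CEBPD at 0.18, FOXO1 at 0.29, KLF15 at 0.60 and FOXO3 at 0.64 (edgeR adjusted p from 0.748 to 0.999), and ZBTB16 was still called at 2.95.

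The early groups of the drugs were set against each other, although drug, dose and time after treatment differ between them and cannot be told apart. The first number of the animal names differs too, and cannot be told apart from these. It is 15 in 15-81, 15-85 and 15-97 of the clinical drug, and 16 or 17 in 16-123, 16-131 and 17-254 of Beta-Ac. KLF15 was 2.05-fold higher at 4 h after the clinical drug than at 6 h after Beta-Ac (log2 difference 1.03 ± 0.22, edgeR adjusted p = 0.0144), and it was the only 1 of 5 factors called, where 6.74% of all genes were. ZBTB16 differed by 0.71 on the log2 scale (95% interval -0.08 to 1.51), FOXO3 by 0.55 (-0.14 to 1.24) and FOXO1 by 0.48 (-0.14 to 1.09). CEBPD was lower after the clinical drug, at -0.24 (95% interval -1.02 to 0.53). These values rested on single animals in both directions. Without animal 17-254, 3 of 5 factors were called, with FOXO1 at 1.00 (edgeR adjusted p = 0.0186) and FOXO3 at 1.02 (edgeR adjusted p = 0.0614), while ZBTB16 was at 1.11 (edgeR adjusted p = 0.105) and CEBPD at 0.45. Without the clinical drug animal 15-81, FOXO3 was at 0.038 and ZBTB16 at 0.466, and without Beta-Ac animal 16-123 FOXO1 was at 0.273. KLF15 stayed called without any single library, at 0.858 to 1.29. At 5 days the drugs differed in 0 of 5 factors (edgeR; 0 with an unadjusted p under 0.05, 0 by DESeq2), where 0% of all genes were called (556 with an unadjusted p under 0.05, 8 called by DESeq2). The 95% interval of the log2 difference at 5 days ran from -0.71 to 0.98 for ZBTB16 and from -0.65 to 0.30 for KLF15.

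Within the early groups the same animals were often the highest or the lowest. Beta-Ac animal 17-254 was the highest of its group in 5 of 5 factors, and 15-85 was the lowest of the clinical drug group in 5 of 5. Animal 15-81 was the highest of that group in 4 of 5, with CEBPD as the exception. The other Beta-Ac animals had no common order, since 16-123 was the lowest in 3 factors and 16-131 in 2. FKBP5, the receptor co-chaperone that is a standard marker of hormone action, was also highest in 17-254 and 15-81 and lowest in 15-85 among the clinical drug animals, with log2 differences from the control mean of 5.26 in 15-81, 4.40 in 15-85 and 4.22 in 17-254, against 1.74 in 16-123 and 2.46 in 16-131. The library of 15-85 had the fewest counted reads of the 15 lung libraries (14.1 M) and that of 15-81 the most (45 M). The library of 17-254 had the highest summed markers of blood (846 CPM) and of leukocytes (254 CPM) in lung. The part of depth and of these cells in the order of the animals was not tested.

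**Figure D3:**
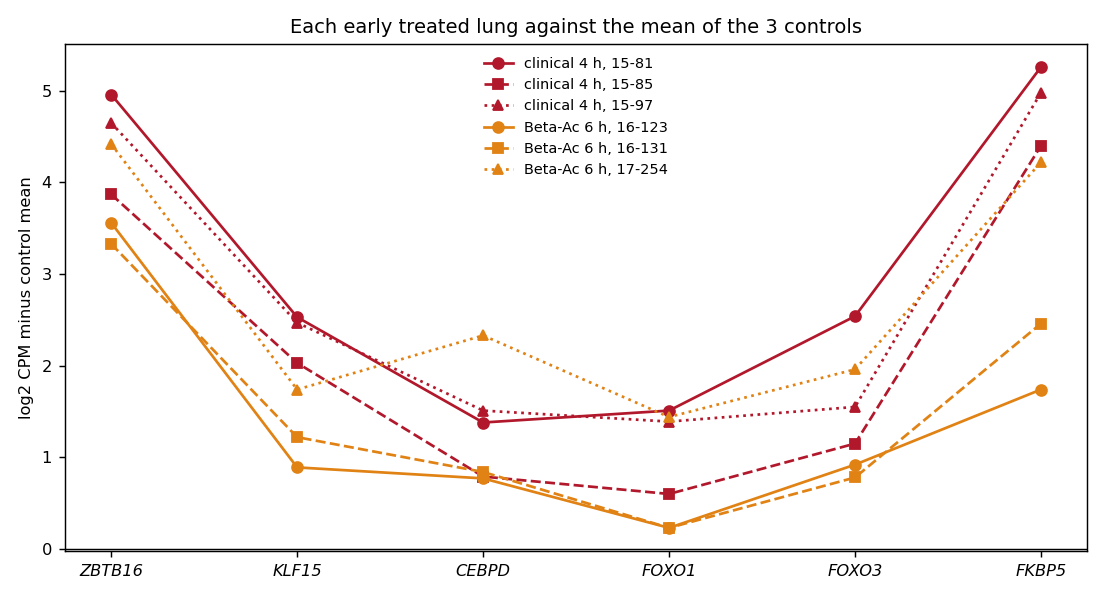
Log2 CPM of each factor and of FKBP5 minus the mean of the 3 controls, for each of the 6 early treated lungs, with 1 line per animal. Animal 17-254 lies above the other Beta-Ac animals at every gene, and 15-85 lies below the other clinical drug animals.

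Summed markers of lung epithelium also moved with treatment. They ranged from 7430 to 10800 CPM in controls, from 13000 to 18900 CPM at 4 h after the clinical drug and from 9740 to 14100 CPM at 6 h after Beta-Ac. The list holds SFTPC and ABCA3, which were themselves called higher after the clinical drug. Markers of endothelium overlapped between controls (2800 to 3330 CPM) and the clinical drug at 4 h (2570 to 3520 CPM) as well as Beta-Ac at 6 h (2990 to 3140 CPM). At 5 days they overlapped the controls after the clinical drug (2780 to 3010 CPM) and lay below all controls after Beta-Ac (2420 to 2600 CPM). Whether the share of epithelium or endothelium has a part in the levels of the factors was not tested.

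Relatives of the factors were examined by family. Over all genes tested, 7.4% were called at 4 h after the clinical drug (3.46% as higher) and 0.442% at 6 h after Beta-Ac. The family counts were not tested against these shares. Of 11 KLF relatives tested, KLF6 and KLF2 were induced by the clinical drug, by 1.00 ± 0.29 (edgeR adjusted p = 0.0417) and 0.78 ± 0.12 (edgeR adjusted p = 0.00115) on the log2 scale, and 0 fell. KLF2 alone was induced by Beta-Ac (0.86 ± 0.12, edgeR adjusted p = 0.0119). The KLF relatives had a median of 0.16 after the clinical drug and ranged from -0.61 to 1.00, beside 2.36 for KLF15. After Beta-Ac they reached 1.31 (KLF1, the erythroid factor, which was not called), close to KLF15. Of 3 C/EBP relatives, 0 were called by edgeR for either drug (0 with an unadjusted p under 0.05, 0 by DESeq2), and they lay between -0.18 and -0.04 after the clinical drug. Of 5 FOXO and other forkhead relatives, FOXO4 was induced by the clinical drug (0.63 ± 0.16, edgeR adjusted p = 0.019) and none were called for Beta-Ac (2 with an unadjusted edgeR p under 0.05, 1 called by DESeq2). Of 34 ZBTB relatives, 3 rose and 1 fell after the clinical drug, namely BCL6 (1.08), ZBTB38 (0.95) and ZBTB7B (0.73), and ZBTB12 (-0.80), while none were called for Beta-Ac (7 with an unadjusted edgeR p under 0.05, 1 called by DESeq2).

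**Figure D4:**
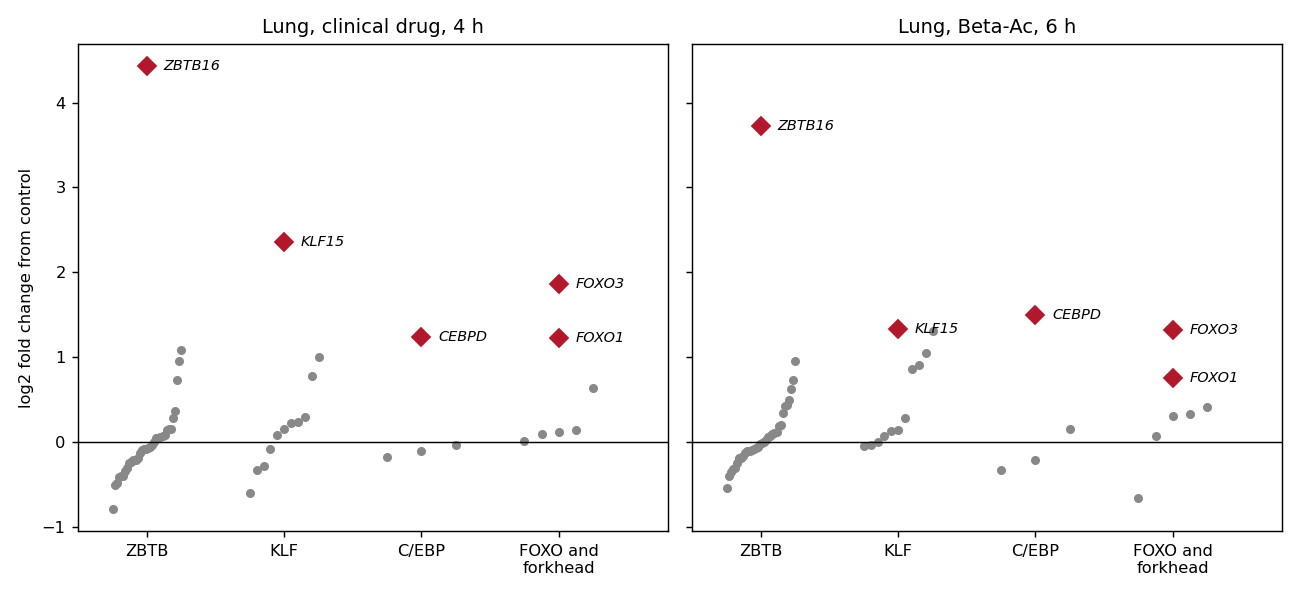
Log2 fold change from control in lung at 4 h after the clinical drug (left) and at 6 h after Beta-Ac (right), with red diamonds for the factors and grey points for the tested relatives of each family. ZBTB16 at 4.43 lies above all 34 ZBTB relatives, of which BCL6 is the highest at 1.08 after the clinical drug, and KLF15 lies close to its highest relative after Beta-Ac.

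Genes that these factors are known to act on were counted from lists drawn up by function. The shares of all genes called as higher were 3.46% at 4 h after the clinical drug and 0.368% at 6 h after Beta-Ac. The list counts were not tested against these shares. Of 20 FOXO target genes tested, 10 rose and 0 fell at 4 h after the clinical drug, with a median log2 fold change of 0.56. They included PDK4, the kinase that turns off pyruvate dehydrogenase (3.39 ± 0.43, edgeR adjusted p = 0.000211), the ubiquitin ligase FBXO32 (1.90 ± 0.32, edgeR adjusted p = 0.00174) and GADD45B (1.76 ± 0.41, edgeR adjusted p = 0.0146). After Beta-Ac, 2 of these 20 rose, PDK4 by 1.83 and FBXO32 by 1.37, and the median was 0.31. Of 11 KLF15-linked genes of amino acid metabolism, GLUL, which makes glutamine, and ALDH6A1, of valine breakdown, rose after the clinical drug, by 1.53 ± 0.21 and 0.66 ± 0.10. GLUL alone rose after Beta-Ac, by 1.09 ± 0.21 (edgeR adjusted p = 0.0523). Of 10 C/EBP-linked lung and acute-phase genes, the surfactant protein SFTPC (1.13 ± 0.28) and the surfactant lipid transporter ABCA3 (0.93 ± 0.19) rose after the clinical drug, and none were called for Beta-Ac (4 with an unadjusted edgeR p under 0.05, 1 called by DESeq2). Several of the listed genes are also known as direct targets of the receptor.

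The genes that set FOXO activity were mixed. Of 17 tested, 3 rose and 1 fell after the clinical drug, where 7.4% of all genes were called. PIK3R1, the regulatory subunit of PI3 kinase, rose by 1.32 ± 0.19 (edgeR adjusted p = 0.000632) and the insulin receptor INSR by 0.72 ± 0.22 (edgeR adjusted p = 0.0527). INPP5D, a lipid phosphatase of blood cells, fell by 0.71 ± 0.23 on the log2 scale (edgeR adjusted p = 0.0602). Only PIK3R1 was called for Beta-Ac, at 0.93 ± 0.19, where 0.442% of all genes were called.

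The hormone's receptor and other known targets were read in the same fit, where 7.4% of all genes were called early after the clinical drug and 0.442% early after Beta-Ac. NR3C1, the glucocorticoid receptor, averaged 93.9 ± 21.4 CPM in controls (SD, n = 3), 70.6 ± 10.8 CPM at 4 h after the clinical drug and 84 ± 7.24 CPM at 6 h after Beta-Ac. Its log2 fold change of -0.41 ± 0.15 after the clinical drug was below the fold threshold (edgeR adjusted p = 0.094). Of 7 receptors and chaperones tested, 2 rose after the clinical drug, FKBP5 by 4.94 ± 0.52 and the cortisol-inactivating enzyme HSD11B2 by 0.74 ± 0.26, and the mineralocorticoid receptor NR3C2 fell by 0.84 ± 0.23. FKBP5 was the 1 gene of that list called for Beta-Ac (3.21 ± 0.49). Of 13 other glucocorticoid-induced genes, 7 rose after the clinical drug and 5 after Beta-Ac, led by FKBP5, PDK4 and the clock gene PER1 (2.31 and 1.78). FKBP5, PDK4 and PER1 are each counted in another list as well, so the counts of the lists share genes. Of 19 other hormone-linked transcription regulators, 7 rose and 3 fell after the clinical drug, with TFCP2L1 (3.56), PER1 and HIF3A (2.11) changing the most, and 2 rose after Beta-Ac. At 5 days, 0 of the 150 list entries tested in lung were called by edgeR for either drug (for the clinical drug 13 had an unadjusted p under 0.05 and DESeq2 called 1, while with Beta-Ac these were 15 and 0).

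The genes beside the factors on the chromosome were also read, by gene order in RefSeq's rhesus assembly T2T-MMU8v2.0. NNMT, a nicotinamide methyltransferase, is the next protein-coding gene after ZBTB16. It averaged 0.166 CPM in controls (1 to 6 reads), 12.9 CPM early after the clinical drug and 6.76 CPM early after Beta-Ac, log2 fold changes of 6.18 ± 0.60 (edgeR adjusted p = 4.78e-05) and 5.25 ± 0.59 (edgeR adjusted p = 0.00224). At 5 days its group means were 0.29 and 0.379 CPM, and like ZBTB16 it was not called. None of the other tested neighbours was called in the early comparisons, and MRPS31 beside FOXO1 and ARMC2 beside FOXO3 were at 0.41 and 0.38 after the clinical drug, below the fold threshold.

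The lung profiles of the factors were compared across the 15 libraries by Pearson's r of log2 CPM, as a description only, since the libraries share treatment groups. ZBTB16 and KLF15 had an r of 0.944, and FOXO1 and FOXO3 of 0.948. With the group means taken out, the same pairs had an r of 0.804 and 0.886, while ZBTB16 and FOXO3 had 0.422. CEBPD had lower values with the other factors, from 0.702 to 0.785. The genes most like ZBTB16 were PER1 (0.978), BCL2L1 (0.967) and HIF3A (0.953), and those most like KLF15 were RRAGD (0.980), NFKBIA (0.976) and FKBP5 (0.969). FOXO3 was most like GLUL (0.984), FAM13A (0.964) and PRDM11 (0.960), and FOXO1 most like SPDYA (0.959), AP2B1 (0.959) and PRDM11 (0.955). For CEBPD the closest were WNT9A (0.886), JADE2 (0.857) and IRS2 (0.855).

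In hippocampus, collected 5 days after treatment, no factor passed the test. CEL against control gave 0 of 6 factors called by edgeR (2 with an unadjusted p under 0.05, 0 called by DESeq2), where 7.86% of all 17390 genes tested were called at an adjusted p (Benjamini-Hochberg) under 0.1. BAC against control gave 0 of 6 (0 with an unadjusted p under 0.05, 0 by DESeq2), and 0% of all genes, of which 2133 had an unadjusted edgeR p under 0.05 and 149 were called by DESeq2. CEL against BAC also gave 0 of 6 (1 with an unadjusted p under 0.05, 0 by DESeq2) and 0% of all genes, with 2346 at an unadjusted edgeR p under 0.05 and 186 called by DESeq2. The early response was not sampled in this tissue.

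**Figure D5:**
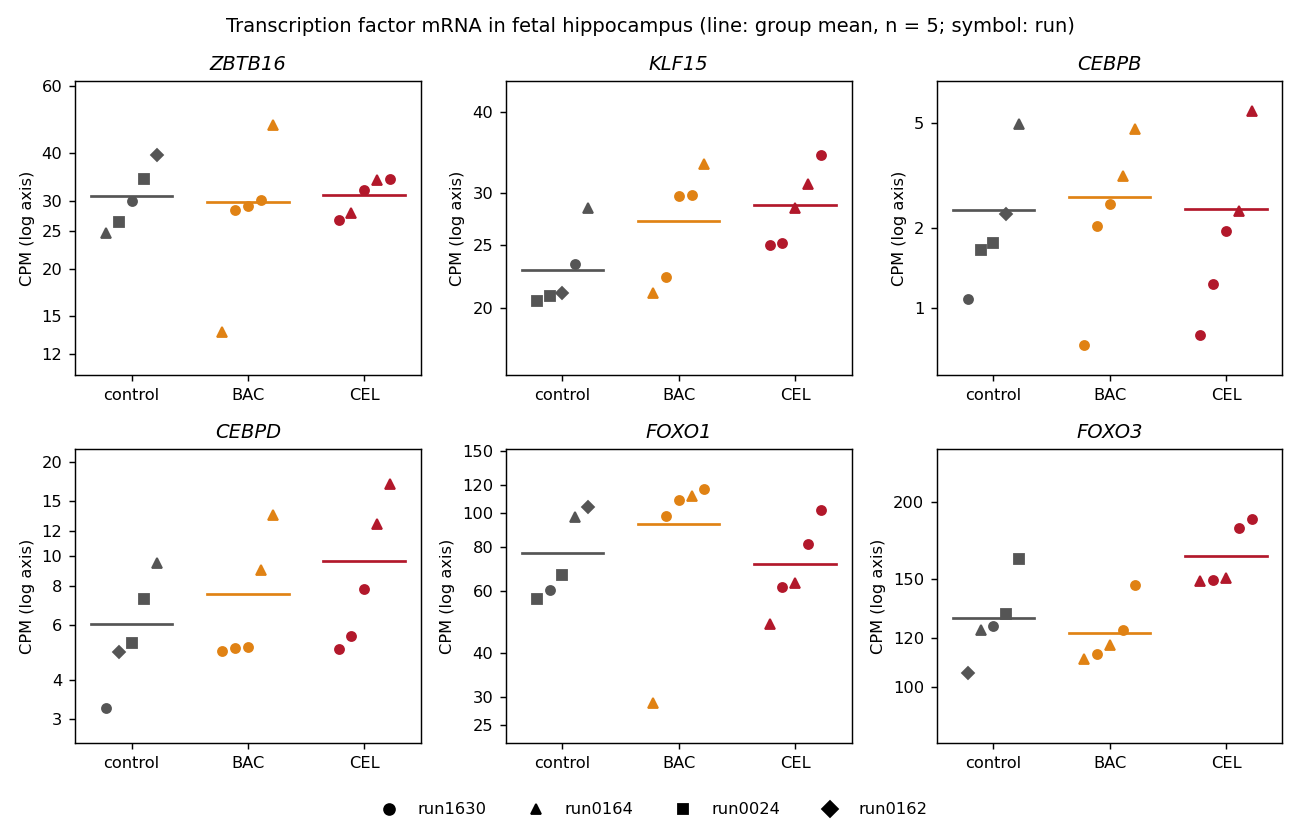
Level of each factor in each hippocampus library, in CPM on a log axis, for controls, BAC and CEL, with the symbol for the sequencing run and lines for group means (n = 5). CEL lies highest for FOXO3, and for CEBPD the libraries of run0164, at 8.99 to 16.9 CPM, lie above all others in every group.

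FOXO3 came closest. It stood at 132, 161, 126, 105 and 124 CPM in controls, at 188, 181, 150, 149 and 150 CPM in CEL and at 113, 147, 124, 117 and 111 CPM in BAC. Every CEL library was above every BAC library, and 1 control, 15-101, lay within the CEL range. CEL was higher than control by 0.34 ± 0.12 on the log2 scale (SE, n = 5 against 5, edgeR adjusted p = 0.0699), a 1.26-fold difference below the threshold of 1.5. It was higher than BAC by 0.42 ± 0.12 (edgeR adjusted p = 0.219), with a 95% interval from 0.17 to 0.67. Within run1630 CEL was 0.45 above the control and 0.44 above BAC, and within run0164 it was 0.27 and 0.39 above them, with 1 control in each run. Of the summed markers of glia, only those of oligodendrocytes set CEL apart from BAC, and no glial list set CEL apart from controls. Those of oligodendrocytes were at 605 to 904 CPM in CEL and 478 to 597 CPM in BAC, without overlap, and at 474 to 775 CPM in controls. Those of astrocytes were at 3490 to 4790 CPM in CEL, 2470 to 4400 CPM in BAC and 2440 to 3710 CPM in controls. Those of microglia were at 92.2 to 157 CPM in CEL, 83.3 to 113 CPM in BAC and 61.6 to 135 CPM in controls. Outside glia, summed markers of striatum were lower in CEL (68 to 93.9 CPM) than in controls (95.2 to 201 CPM), without overlap. In BAC they were at 74.1 to 174 CPM. The part of these cells in the level of FOXO3 was not tested.

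KLF15 ranged from 20.5 to 28.5 CPM in controls (median 21.1), from 25 to 34.3 CPM in CEL (median 28.5) and from 21.1 to 33.2 CPM in BAC (median 29.8). All groups overlapped, since the control CTL212 was as high as the middle of CEL. Its log2 fold change was 0.33 ± 0.14 for CEL (edgeR adjusted p = 0.135) and 0.25 ± 0.14 for BAC (edgeR adjusted p = 0.497). With the sequencing run as a term, the value for CEL was 0.16 (edgeR adjusted p = 0.625), and within runs it was 0.25 and 0.06.

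CEBPD and CEBPB differed more between sequencing runs than between groups. CEBPD stood at 8.99 to 16.9 CPM in the 5 libraries of run0164, of which 1 was a control, 2 CEL and 2 BAC, and at 3.25 to 7.82 CPM in the other 10 libraries. These ranges did not overlap. CEBPB stood at 2.32 to 5.52 CPM in the same 5 libraries and at 0.722 to 2.47 CPM in the other 10, from 16 to 124 reads in all groups. None of the 5 fetuses of run0164 had a lung library, and of the other 10 libraries only CTL209, of run0162, came from such a fetus. CTL209 stood at 4.92 CPM for CEBPD and at 2.26 CPM for CEBPB. With only 1 such library, the part of run and of the set of animals was not tested. The log2 fold change of CEBPD in CEL was 0.67 ± 0.39 (SE, n = 5 against 5, edgeR adjusted p = 0.255) and 0.77 ± 0.24 with the run as a term, which passed the test (edgeR adjusted p = 0.0859). Within run1630 CEL was 0.87 above the control on the log2 scale and within run0164 0.63, with 1 control in each run. CEBPB in CEL was at 0.01 ± 0.54, so that its 95% interval ran from -1.14 to 1.15.

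ZBTB16, the factor with the largest lung response, averaged 31 ± 6 CPM in hippocampus controls (SD, n = 5), 31.1 ± 3.48 CPM in CEL and 29.8 ± 12 CPM in BAC. Its log2 fold change was 0.00 for CEL (95% interval -0.48 to 0.50) and -0.06 for BAC (-0.54 to 0.43). Both the lowest and the highest library were BAC, BAC235 at 13.7 CPM and BAC237 at 47.5 CPM. FOXO1 averaged 76.9 ± 21.9 CPM in controls, 71.4 ± 20.9 CPM in CEL and 92.7 ± 36.3 CPM in BAC. BAC235 was also the lowest library for FOXO1, at 28.8 CPM, while the other 4 BAC libraries lay between 98 and 117 CPM. FKBP5 averaged 4.13 ± 0.908 CPM in controls, 3.28 ± 0.682 CPM in CEL and 4.48 ± 1.65 CPM in BAC, and neither it nor NR3C1 (23.9 ± 3.15, 24.5 ± 3.56 and 20.4 ± 5.26 CPM) passed the test.

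In hippocampus, 11 of 147 list entries were called for CEL by edgeR (10 by DESeq2), a share close to the 7.86% of all genes, and those called are named here. FBXO32 and PIK3IP1 fell among 20 FOXO targets, by 0.89 ± 0.33 and 0.65 ± 0.18 on the log2 scale, and the kinase AKT2 fell among 16 genes that set FOXO activity (by 0.74 ± 0.15, edgeR adjusted p = 0.014). Among 6 forkhead relatives FOXN2 rose by 0.82 ± 0.21 and FOXK1 fell by 0.67 ± 0.19, and among 36 ZBTB relatives the neuronal repressor ZBTB18 rose by 0.76 ± 0.15. The amine oxidase MAOA and the cell cycle inhibitor CDKN1C fell among 14 other glucocorticoid-induced genes (by 0.79 ± 0.25 and 0.83 ± 0.29), RXRA among 19 transcription regulators (by 0.59 ± 0.16, not called by DESeq2) and BCAT1 among 10 KLF15-linked genes (by 0.76 ± 0.23). CP was called lower by edgeR but not by DESeq2 among 4 C/EBP-linked genes, with 308 CPM in CTL212 and 0.0875 to 0.831 CPM in the other 14 libraries. No gene of the 12 KLF relatives, 3 C/EBP relatives or 7 receptors and chaperones was called by edgeR or DESeq2, and 2, 1 and 2 of them had an unadjusted edgeR p under 0.05. For BAC, 0 of 147 list entries were called by edgeR (22 with an unadjusted p under 0.05, 1 by DESeq2).

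Across the 15 hippocampus libraries the r of the pairs differed from those of lung, but only the lung libraries include early treated animals. With the group means taken out, the hippocampus r was 0.424 for ZBTB16 and KLF15 and -0.0936 for FOXO1 and FOXO3. The difference between the tissues was not tested. The next values are without that step. The r of FOXO1 and FOXO3 was -0.196, that of ZBTB16 and KLF15 0.329, that of ZBTB16 and FOXO1 0.670, and that of CEBPB and CEBPD 0.773. BAC235 was the lowest of the 15 libraries for both ZBTB16 and FOXO1, and run0164 was high for both C/EBP factors. The genes most like each factor were BSN (0.872), ASB1 (0.846) and TENM2 (0.845) for ZBTB16, TPD52L2 (0.887), ABHD4 (0.875) and FOXO4 (0.868) for KLF15, and PRDM2 (0.948), CDK19 (0.929) and SYT7 (0.915) for FOXO3. For FOXO1 they were SERPINB13 (0.928), NRP2 (0.914) and PDE3A (0.908), for CEBPB ANKRD9 (0.945), CLEC11A (0.942) and PYCR3 (0.936), and for CEBPD LRRC10B (0.899), GP1BB (0.893) and IER5 (0.890). By rank (Spearman's rho) ZBTB16 had lower values, 0.611 with BSN, 0.425 with ASB1, 0.786 with TENM2 and 0.421 with FOXO1.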

How the data were processed

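The deposited values are whole-number read counts per Ensembl gene, without normalization. The authors aligned reads to the rhesus build MMUL1.0 and counted them with featureCounts, and the submitters' notes name Bowtie 1.2.1.1 and featureCounts 1.5.1 for lung and Bowtie2 for hippocampus. Depth was 14.1 to 45 M reads in lung and 18.3 to 29.3 M in hippocampus. Replicates are separate fetuses, whose differences far exceeded counting error.

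Identifiers were paired with symbols by a reference gene table, which named 52.1% of them in lung and 54.4% in hippocampus. Counts were fitted with edgeR 4.0.16 (R 4.3.3, TMM, quasi-likelihood test, two-sided) once per tissue over all 15 libraries, keeping genes that reached 7 reads in 3 lung or 5 hippocampus libraries. Calls needed an adjusted p below 0.1 (Storey in lung, Benjamini-Hochberg in hippocampus), an unadjusted p below 0.05 and a fold change of 1.5 or more. Log2 CPM used a prior count of 2 and fold changes a prior count of 0.125. The procedure was tested on simulated counts.

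The factors, gene lists and marker lists were chosen with earlier results of these data known. Named genes are all 7 factors, NR3C1, FKBP5, up to 3 called genes per list with the largest change and the 3 genes most like each factor. NNMT, MRPS31, ARMC2, KLF1, ZBTB7B and the range of CP were named after their values were seen. Alternatives were RLE normalization, other filters, only the groups compared, DESeq2 1.42.0, no fold-change threshold, the other adjustment, each library left out and, in hippocampus, the sequencing run as a term, 2 runs only and shared animals only. Leaving out CTL092, BAC235 and CTL212 was added after seeing the data. No sequences were used here.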

Additional observations from a re-analysis of the deposited data

Results flagged for a closer look

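In hippocampus, the FOXO1 level of BAC235 (28.8 CPM) lay far below the other 4 BAC libraries, with a gap of 0.788 of the group's range, above Dixon's limit. It was the 1 such library among 18 combinations of factor and group, where chance alone gives about 1 in 20.

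KLF15 differed between the drugs early after treatment, being 1.03 higher on the log2 scale at 4 h after the clinical drug than at 6 h after Beta-Ac. For the clinical drug, the response differed between 4 h and 5 days in ZBTB16 (by 3.93), KLF15 (by 2.07), FOXO3 (by 1.48) and FOXO1 (by 0.99), and for Beta-Ac the response differed between 6 h and 5 days in ZBTB16 (by 3.35). Each of these differences was tested directly in edgeR's fit.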

How the results depend on the processing

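The 5 of 5 factors called at 4 h after the clinical drug ranged from 4 to 5 when single libraries were left out, and the 4 that fell by 5 days stayed at 4. The 2 of 5 called at 6 h after Beta-Ac became 1 when only the groups compared were fitted, 4 with DESeq2 and 1 to 4 without single libraries (1 without control 15-92, control 16-113 or 17-254, and 4 without 16-131). For Beta-Ac at 6 h against 5 days the 1 call became 3 with DESeq2 and ranged from 1 to 2 (2 without 16-123), and for the drugs early against each other it ranged from 1 to 3 (3 without 17-254). In hippocampus the 0 factors called for CEL became 1 without the fold-change threshold (FOXO3) and 1 with the run as a term (CEBPD). The cause of these changes was not tested.

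Of 1413 alternative log2 fold changes, 1346 kept their direction and their call, 13 were newly called, 7 were no longer called and 47 changed sign, all 47 from main values that were not called. Leaving out single libraries gave in lung -0.006 to 0.596 for ZBTB16 at 5 days after Beta-Ac, -0.05 to 0.38 for CEBPD and -0.19 to 0.28 for ZBTB16 between the drugs at 5 days, and -0.51 to 0.45 for CEBPD between the drugs early. In hippocampus it gave for CEL against control -0.067 to 0.119 for ZBTB16, -0.57 to 0.48 for CEBPB and -0.273 to 0.037 for FOXO1, for BAC against control -0.157 to 0.008 for FOXO3, -0.16 to 0.63 for CEBPB and -0.29 to 0.13 for ZBTB16, and for CEL against BAC -0.12 to 0.29 for ZBTB16, 0.00 to 0.16 for KLF15 and -0.73 to 0.17 for CEBPB.

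Other changes of sign were all in hippocampus. For CEL against control, ZBTB16 was at -0.002 without a filter, CEBPB at -0.091 with the run as a term, -0.324 in the 2 runs that hold all groups and -0.161 in shared animals, and FOXO1 at 0.422 in shared animals. For BAC against control, ZBTB16 was at 0.123 with the run as a term and 0.145 in the 2 runs, CEBPB at -0.161 in the 2 runs and CEBPD at -0.049 in shared animals. Without CTL092 and BAC235 the values were -0.038 (ZBTB16) and -0.072 (CEBPB) for CEL, 0.086 (ZBTB16), -0.237 (CEBPB) and -0.022 (CEBPD) for BAC, and -0.124 (ZBTB16), -0.002 (KLF15) and 0.165 (CEBPB) for CEL against BAC. Without CTL212 as well, ZBTB16 was at -0.154 for CEL, and ZBTB16, KLF15 and CEBPB were at -0.124, -0.002 and 0.164 for CEL against BAC.

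Counts of all genes called depended more on the setting. For Beta-Ac at 6 h the 78 genes became 247 with DESeq2, 19 with only the groups compared and 9 to 211 without single libraries. Against 5 days its 46 genes became 185 with DESeq2, 29 with Benjamini-Hochberg, 9 with only the groups compared and 5 to 98 without single libraries. For the drugs early against each other 1189 became 724 without a filter, 314 with only the groups compared and 667 to 1971 without single libraries, and at 5 days DESeq2 called 16 (clinical drug) and 40 (Beta-Ac) against 0 and 1. For CEL 1366 became 229 in the 2 runs, and for BAC 0 became 149 with DESeq2, 18 in the 2 runs and 184 without BAC128.

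With 3 animals a group in lung, and with CEBPB at 16 to 124 reads in hippocampus, small differences were not detectable. No paired analysis was possible because the groups compared share no replicate numbers given by the labels.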
